A study of Rattus norvegicus with 18 samples.

Results

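The genes described here are 41 transcripts of the cell division cycle, chosen by their symbols: 13 act in S phase or at its entry, and 28 act in G2 and mitosis. The deposited table names 36 of them, 12 of S phase and 24 of G2/M, among its 18420 gene rows. Rrm2, Ccnb1, Ccnb2, Kif11 and Top2a are not analysed here. They were read by RNA-seq of messenger RNA from the kidney cortex of rats of the ZDF (Zucker diabetic fatty) strain, with 3 groups of 6 libraries. The healthy control group was lean, non-diabetic ZDF fa/+. The disease group was diabetic ZDF fa/fa. The RYGB group was also diabetic ZDF fa/fa and had undergone gastric bypass surgery of the Roux-en-Y type, which reroutes food around most of the stomach and the duodenum. The fa allele alters the leptin receptor in every cell that makes it, fa/fa rats become obese, and the healthy control group carries 1 fa allele as well. The labels give no age, sex, time after surgery or sham operation. Nor do they state whether the libraries are separate animals, and the p-values therefore describe the spread among the libraries, which may be technical. Single libraries are written as H1 to H6 (healthy control), D1 to D6 (disease) and R1 to R6 (RYGB), after the replicate numbers of the labels.

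A dividing cell copies its DNA in S phase, and then condenses, aligns and separates the copies in mitosis, which follows a gap called G2. S phase genes such as those of the MCM helicase are switched on by E2F factors, while most G2/M genes are repressed in resting cells by the DREAM complex and activated in cycling cells by B-MYB and FOXM1, through a promoter element called the cell cycle genes homology region (CHR), often beside CCAAT boxes bound by NF-Y. Most cells of the adult kidney cortex rest and tubule cells can re-enter the cycle after injury. In bulk RNA, fewer dividing cells and less of a transcript per cell cannot be told apart.

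The promoters of 6 of the genes are shown for the 3 kinds of element: Prc1, Cdk1 and Cenpf of G2/M, Mcm5 and Mcm7 of S phase, and Melk, the G2/M gene called between disease and healthy control. Each sequence runs 5′ to 3′ from 250 bases before to 20 bases after the annotated start (RefSeq, build GRCr8). Capitals mark the letters TTTGAA or TTCGAA of the CHR, CCAAT, and TTCGCGC or TTGGCGC of an E2F site, on either strand; the E2F letters can overlap each other and CCAAT, which gives the longer capital runs in Mcm5 and Mcm7. The windows are chr1:143659231-143659500, plus strand for Prc1, chr20:19265043-19265312, plus strand for Cdk1, chr13:103760867-103761136, minus strand for Cenpf, chr19:13488563-13488832, plus strand for Mcm5, chr12:22163159-22163428, minus strand for Mcm7 and chr5:63335901-63336170, plus strand for Melk.
Prc1: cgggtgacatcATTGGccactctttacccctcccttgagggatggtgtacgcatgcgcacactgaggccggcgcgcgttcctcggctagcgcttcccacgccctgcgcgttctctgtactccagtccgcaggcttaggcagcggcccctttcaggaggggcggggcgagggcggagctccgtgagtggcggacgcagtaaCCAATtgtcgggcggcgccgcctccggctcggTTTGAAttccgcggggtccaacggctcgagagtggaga
Cdk1: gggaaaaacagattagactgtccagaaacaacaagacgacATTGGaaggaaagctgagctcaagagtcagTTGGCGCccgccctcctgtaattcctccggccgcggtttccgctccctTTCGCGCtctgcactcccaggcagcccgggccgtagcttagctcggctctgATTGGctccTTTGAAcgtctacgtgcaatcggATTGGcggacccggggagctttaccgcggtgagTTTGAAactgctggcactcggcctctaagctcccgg
Cenpf: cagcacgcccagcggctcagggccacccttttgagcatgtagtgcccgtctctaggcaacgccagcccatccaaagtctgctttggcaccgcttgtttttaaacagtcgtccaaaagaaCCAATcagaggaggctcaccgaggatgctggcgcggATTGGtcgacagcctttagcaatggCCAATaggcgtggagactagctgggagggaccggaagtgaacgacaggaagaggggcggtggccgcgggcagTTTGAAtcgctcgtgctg
Mcm5: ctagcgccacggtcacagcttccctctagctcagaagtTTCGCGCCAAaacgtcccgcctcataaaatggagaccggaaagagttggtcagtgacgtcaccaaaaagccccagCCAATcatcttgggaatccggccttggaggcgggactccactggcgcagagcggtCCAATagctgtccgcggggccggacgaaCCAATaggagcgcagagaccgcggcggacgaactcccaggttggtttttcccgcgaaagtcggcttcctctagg
Mcm7: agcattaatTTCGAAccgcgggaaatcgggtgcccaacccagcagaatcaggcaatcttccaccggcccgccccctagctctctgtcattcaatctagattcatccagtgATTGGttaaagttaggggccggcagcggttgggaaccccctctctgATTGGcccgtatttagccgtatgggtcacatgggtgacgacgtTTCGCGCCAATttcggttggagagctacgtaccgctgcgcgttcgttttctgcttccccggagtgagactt
Melk: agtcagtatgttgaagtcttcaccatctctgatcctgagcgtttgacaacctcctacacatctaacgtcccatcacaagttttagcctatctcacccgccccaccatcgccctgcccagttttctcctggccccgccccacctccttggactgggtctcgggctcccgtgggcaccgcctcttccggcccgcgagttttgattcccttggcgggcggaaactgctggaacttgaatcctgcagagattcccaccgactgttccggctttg

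In the Prc1 and Cenpf windows 1 CHR match lies close to the start and CCAAT matches lie upstream of it, and the Cdk1 window holds 2 CHR matches, CCAAT matches and 2 E2F matches. The Mcm5 and Mcm7 windows hold E2F and CCAAT matches, Mcm7 also a distant CHR match, and the Melk window holds none. Of the 36 genes 28 have a promoter in the table, 9 of S phase and 19 of G2/M, and these were searched from 250 bases before to 50 bases after the start. The CHR letters were in 13 of 19 G2/M and 3 of 9 S phase promoters, and in 19.7% of all 33469 promoters of the same length. The E2F letters were in 2 of 19 G2/M promoters (Cdk1 and Mki67) and 6 of 9 S phase promoters (Mcm2, Mcm3, Mcm5, Mcm6, Mcm7 and Tyms), and in 3.66% of all promoters. CCAAT was in 12 of 19 and 6 of 9, and in 37.5% of all promoters. None of the 3 kinds was found in 5 of the 28 promoters, those of Ccne1, Aurka, Bub1, Kif2c and Melk. A match is a description of letters and not a shown binding site. Other spellings of these elements were not searched, so a promoter with no match may still hold one.

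**Figure D1:**
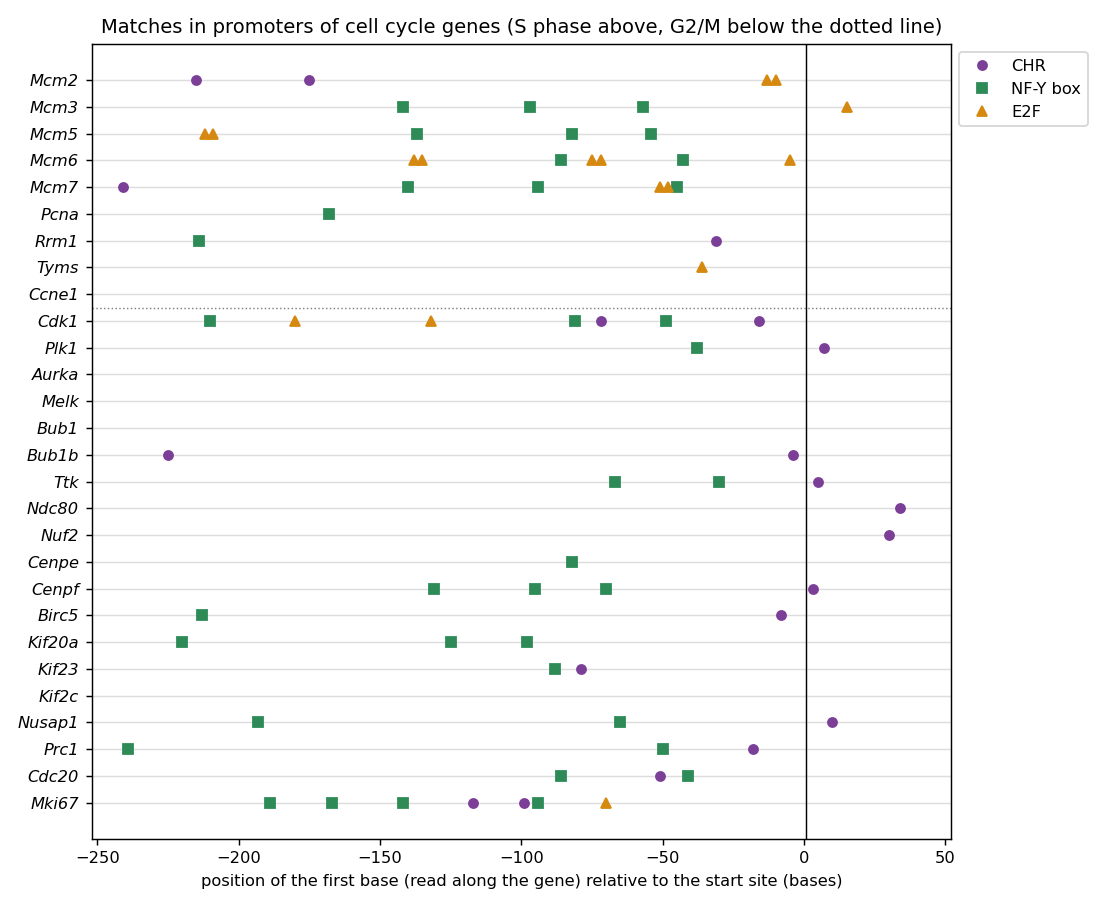
Positions of matches to the CHR, NF-Y box (CCAAT) and E2F letters on either strand in 28 promoters, in bases from the start site (vertical line), with S phase genes above and G2/M genes below the dotted line. CHR matches are in 13 of 19 G2/M promoters and E2F matches in 6 of 9 S phase promoters, and 5 of the 28 rows are empty.

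Libraries held 8116638 to 42713246 reads in genes, and values below are normalised reads, that is reads divided by the size factor of the library, at 0.495 to 2.49 for 1 read. All 5 proximal tubule markers in the table (Cubn, Slc34a1, Slc5a2, Aqp1 and Slc22a6) were present, with sums of 84520 to 244900. Healthy control replicate 4 stands apart in these genes: it was the lowest healthy control library in 20 of 24 G2/M genes and in 7 of 12 S phase genes. It also had the fewest reads in genes, 8116638, and the part of depth in its place was not tested. Results on the healthy control group are therefore given with and without replicate 4.

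RYGB cortex had less of most G2/M transcripts than disease cortex. Of the 24 G2/M genes 17 fell (adjusted p below 0.05 by limma) and 0 rose, while 2.1% of all 13988 genes tested were called lower in this comparison. Of the 12 S phase genes 3 fell (Mcm3, Mcm5 and Mcm6) and 0 rose. None of the other genes had a higher level in RYGB at an unadjusted p below 0.05, and edgeR and DESeq2 called none higher. The median log2 fold change was -1.45 over the G2/M genes, -0.45 over the S phase genes and -0.00087 over all genes tested. In 17 G2/M genes all 6 RYGB libraries lay below all 6 disease libraries, and in 3 S phase genes (Mcm3, Mcm5 and E2f1), against 1.47% of all genes.

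All 36 genes passed the filter, 10 normalised reads or more in 6 or more libraries, but 5 of them (Ccna2, Aurkb, Ttk, Birc5 and Kif2c) had no RYGB library at that minimum and passed through the other groups. In 21 genes all 6 RYGB libraries reached it, and of these 6 of 11 G2/M genes and 3 of 10 S phase genes fell against disease, while 1.68% of the 13045 tested genes with the same property were called lower. Genes listed at a few reads carry a larger counting error, and their log2 fold changes, taken on normalised reads + 1, understate the ratio.

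**Figure D2:**
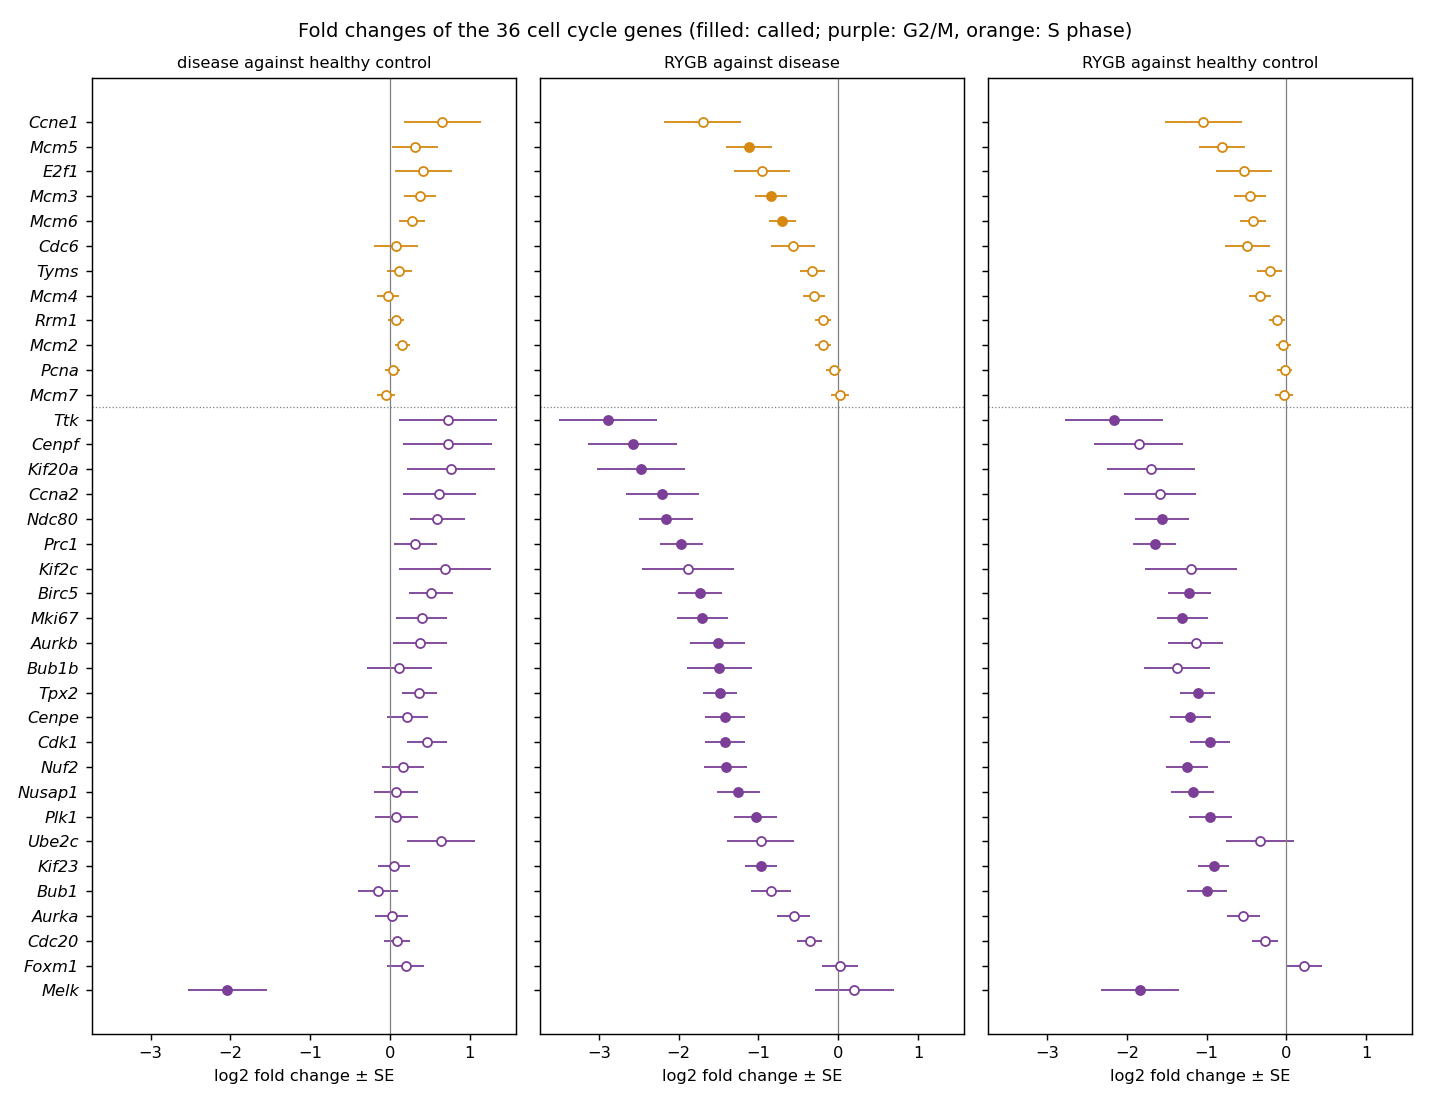
Log2 fold change ± SE of the 36 genes (normalised reads + 1) in the 3 comparisons, with filled points for adjusted p below 0.05, orange for S phase and purple for G2/M. In RYGB against disease 17 of 24 G2/M and 3 of 12 S phase points are filled and lie left of 0; in disease against healthy control Melk is the single filled point.

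Among the cyclins and mitotic kinases, Cdk1, the kinase that drives entry into mitosis, had (lowest, median and highest library, here and below) 14.7, 43.3 and 49.1 in healthy control, 38.9, 53.2 and 62.3 in disease and 14.5, 18.6 and 24.04 in RYGB. Ccna2, which encodes cyclin A2, a partner of the S phase and mitotic kinases, had 2.45, 18.2 and 35.9 in healthy control, 14.4, 21.3 and 35.3 in disease and 1.09, 5.66 and 6.43 in RYGB. The RYGB libraries of both genes lay below every disease library, with log2 fold changes of -1.42 ± 0.25 for Cdk1 (adjusted p = 0.00318) and -2.20 ± 0.45 for Ccna2 (adjusted p = 0.0103). Plk1, a kinase of centrosome maturation and spindle assembly, had 9.81, 24.2 and 35.1 in healthy control, 15.5, 25.6 and 35.5 in disease and 9.01, 11.9 and 12.1 in RYGB. Aurkb, the catalytic kinase of the chromosomal passenger complex, had 4.91, 17.5 and 25.2 in healthy control, 13.6, 19.02 and 23.1 in disease and 2.21, 6.81 and 9.58 in RYGB. These groups did not overlap either, and both genes fell, with log2 fold changes of -1.03 ± 0.27 for Plk1 (adjusted p = 0.0364) and -1.51 ± 0.34 for Aurkb (adjusted p = 0.0173). Plk1 was not called without D2, D5, D6, R1, R2, R4, R5 or R6 (adjusted p 0.0549 to 0.0809), and the call of the other 3 was kept without any 1 library. Aurka, the related kinase of the spindle poles, did not pass (-0.56 ± 0.21, adjusted p = 0.131). Foxm1, the transcription factor of the G2/M programme, had 29.4, 63.4 and 80.8 in healthy control, 42.4, 67.7 and 87.9 in disease and 54.4, 63.4 and 91.6 in RYGB, so that its groups lay on top of each other (0.02 ± 0.23, adjusted p = 0.963).

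The spindle checkpoint delays chromosome separation until every kinetochore is attached. Its kinase Ttk had 0, 16.4 and 19.8 in healthy control, 10.2, 15.9 and 37.4 in disease and 0, 1.504 and 4.50 in RYGB. Ttk was listed at 0 in healthy control replicate 4 and in RYGB replicate 6, where 3 reads would be 7.36 and 3.59 normalised reads. No RYGB library reached the lowest disease library (-2.88 ± 0.61, adjusted p = 0.0124). Bub1b, which encodes the checkpoint protein BubR1, had 4.91, 19.2 and 30.3 in healthy control, 11.2, 16.8 and 35.3 in disease and 3.05, 4.76 and 13.5 in RYGB, with RYGB replicate 2 inside the disease range. It fell (log2 fold change -1.49 ± 0.41, adjusted p = 0.0443), and the call was lost without H2, H3, H6, D1, D2, D4, D5, D6, R1, R4, R5 or R6 (adjusted p 0.0523 to 0.1104), and with no filter on low values (adjusted p = 0.0504) or the compared groups alone (adjusted p = 0.0501). The kinase Bub1 had 29.4, 50.4 and 58.1 in healthy control, 29.3, 39.3 and 69.6 in disease and 14.5, 23.0 and 39.0 in RYGB and did not pass by limma (-0.84 ± 0.25, adjusted p = 0.0658) or edgeR (adjusted p = 0.0592) and was called lower by DESeq2 (adjusted p = 0.0206). By limma it was called without H4, D3 or R2 (adjusted p 0.0352 to 0.0452).

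Kinetochore genes fell too. Ndc80, which binds microtubules at the kinetochore, had 12.3, 28.6 and 44.9 in healthy control, 27.8, 39.2 and 69.6 in disease and 4.50, 7.84 and 17.5 in RYGB. Nuf2, its partner in the same complex, had 23.7, 28.7 and 35.1 in healthy control, 17.6, 31.1 and 66.2 in disease and 8.38, 11.3 and 16.8 in RYGB. In both genes every RYGB library was under every disease library, with log2 fold changes of -2.15 ± 0.34 for Ndc80 (adjusted p = 0.00131) and -1.41 ± 0.27 for Nuf2 (adjusted p = 0.00473). Cenpe, a kinetochore motor that aligns chromosomes, had 29.4, 49.3 and 73.4 in healthy control, 40.0, 53.0 and 100.1 in disease and 12.01, 22.5 and 25.1 in RYGB. Cenpf, a large kinetochore protein made in G2, had 2.45, 45.5 and 84.3 in healthy control, 26.7, 68.8 and 89.7 in disease and 5.93, 7.68 and 16 in RYGB. Both fell with no overlap, by log2 fold changes of -1.42 ± 0.25 for Cenpe (adjusted p = 0.00341) and -2.58 ± 0.56 for Cenpf (adjusted p = 0.0142). Birc5, which encodes survivin of the chromosomal passenger complex, had 7.36, 15.4 and 23.0 in healthy control, 15.5, 21.1 and 29.9 in disease and 3.28, 6.27 and 7.62 in RYGB and fell as well (log2 fold change -1.73 ± 0.27, adjusted p = 0.00120).

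**Figure D3:**
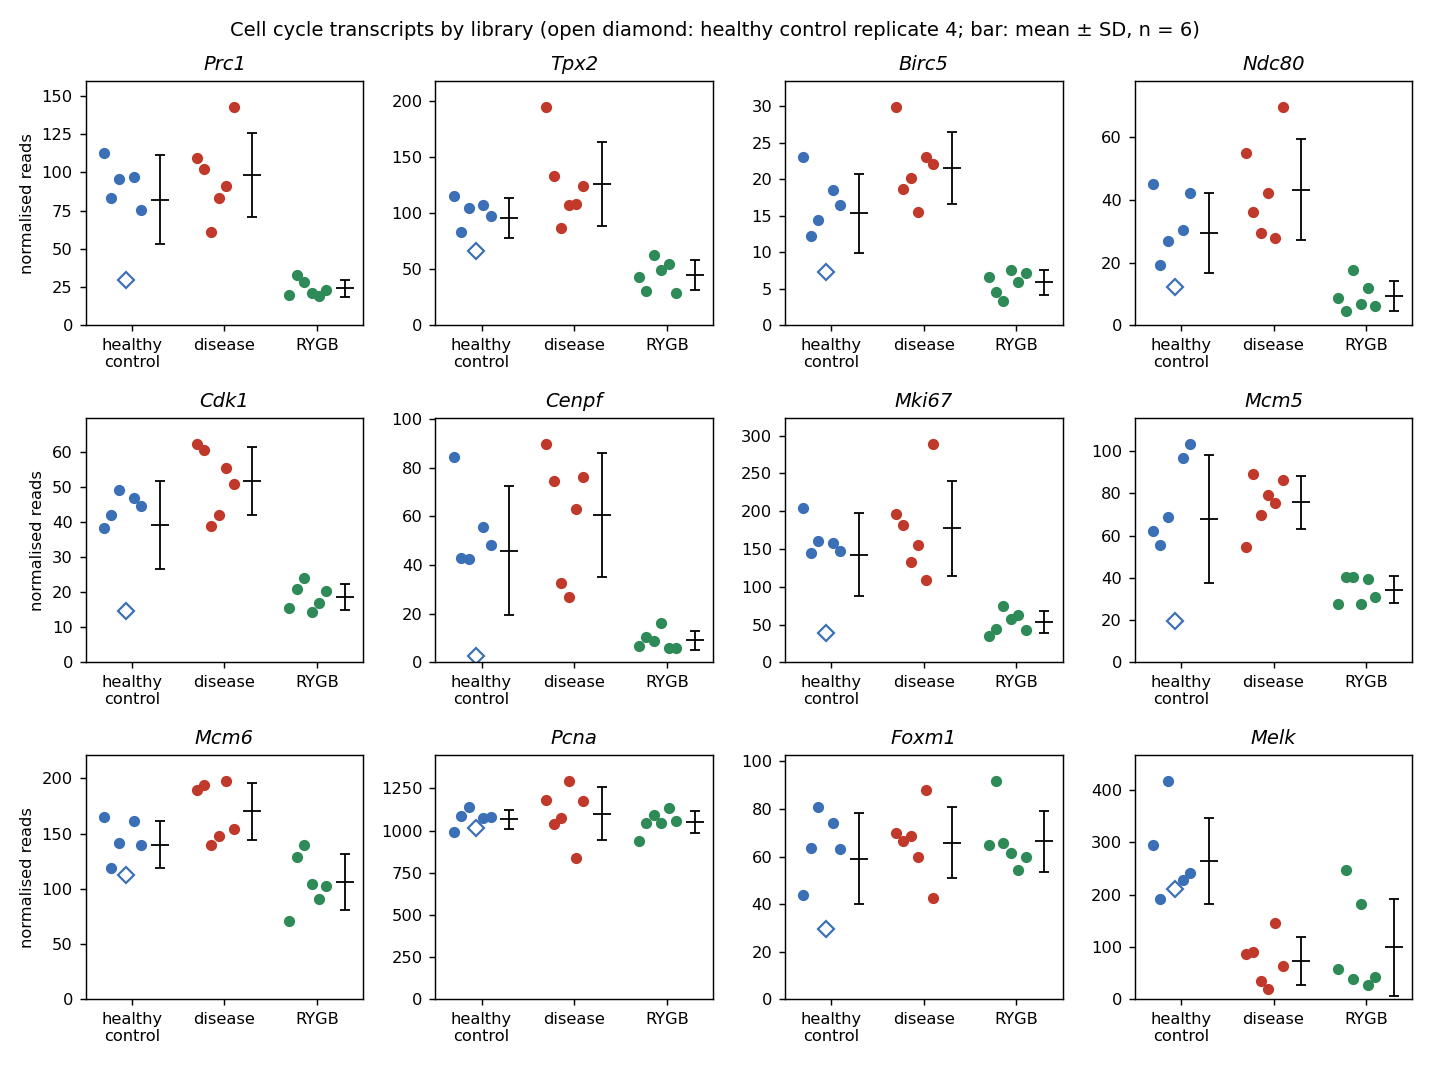
Normalised reads of 12 cell cycle genes in every library, with 1 point per library and the mean ± SD (n = 6) beside each group; the open diamond is healthy control replicate 4. RYGB points of Prc1, Tpx2, Birc5, Ndc80, Cdk1, Cenpf, Mki67 and Mcm5 lie below all disease points, the groups overlap in Mcm6, Pcna and Foxm1, and the disease points of Melk lie below all healthy control points.

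Genes of the spindle and of cell separation gave the lowest adjusted p. Prc1, which bundles the microtubules of the central spindle, had 29.4, 89.5 and 113 in healthy control, 61.2, 96.4 and 143 in disease and 18.8, 22.0 and 33.0 in RYGB. Its RYGB libraries had 24.5% of the disease mean (-1.97 ± 0.27, adjusted p = 0.000471), with no overlap. Tpx2, which starts microtubule growth around chromosomes and activates Aurora A, had 66.2, 101 and 115 in healthy control, 86.8, 116 and 194 in disease and 28.7, 46.3 and 62.3 in RYGB. Kif20a, a motor of the central spindle, had 2.45, 35.4 and 50.4 in healthy control, 30.2, 40.9 and 57.7 in disease and 2.19, 9.10 and 15.01 in RYGB. Both fell without overlap, with log2 fold changes of -1.48 ± 0.22 for Tpx2 (adjusted p = 0.000779) and -2.47 ± 0.55 for Kif20a (adjusted p = 0.0163). Kif23, a motor of cytokinesis, had 48.1, 61.0 and 77.8 in healthy control, 46.9, 62.8 and 86.6 in disease and 22.1, 29.7 and 45.9 in RYGB. Nusap1, which ties microtubules to chromosomes, had 14.7, 38.3 and 54.8 in healthy control, 25.3, 36.4 and 49.2 in disease and 9.92, 14.2 and 20.4 in RYGB. All RYGB libraries of both lay below the disease libraries, with log2 fold changes of -0.97 ± 0.20 for Kif23 (adjusted p = 0.0103) and -1.25 ± 0.27 for Nusap1 (adjusted p = 0.0136). Kif2c, a motor that takes microtubules apart at centromeres, had 0, 18.4 and 21.1 in healthy control, 10.2, 16.4 and 29.4 in disease and 2.40, 3.90 and 7.65 in RYGB; its groups did not overlap, but it did not pass (-1.88 ± 0.58, adjusted p = 0.0726). It was called without H4 (adjusted p = 0.000715), and with all libraries by edgeR (adjusted p = 0.00944), which called 2.31% of all genes lower, and by DESeq2 (adjusted p = 0.000153).

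Mki67, which encodes the proliferation antigen Ki-67 of the chromosome surface, had 39.2, 153 and 204 in healthy control, 109.5, 168 and 288 in disease and 35.3, 50.7 and 74.3 in RYGB. All RYGB libraries were under all disease libraries (-1.70 ± 0.32, adjusted p = 0.00444). The genes of the anaphase-promoting complex, which starts the exit from mitosis, did not pass: its activator Cdc20 had -0.36 ± 0.16 (adjusted p = 0.210) and its ubiquitin carrier Ube2c had -0.97 ± 0.43 (adjusted p = 0.199). Of the 17 G2/M calls 15 were kept under every alternative that tested the gene, Plk1 and Bub1b being the exceptions.

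Of the 6 MCM genes of S phase, whose proteins form a single ring-shaped helicase, 3 fell and 3 did not pass, a split that was not itself tested. Mcm5 had 19.6, 65.7 and 103 in healthy control, 54.8, 77.5 and 89.2 in disease and 27.4, 35.4 and 40.5 in RYGB. Mcm3 had 49.1, 63.0 and 119 in healthy control, 73.1, 88.7 and 116 in disease and 43.7, 49.98 and 58.7 in RYGB. The RYGB libraries of both lay below all disease libraries, with log2 fold changes of -1.12 ± 0.29 for Mcm5 (adjusted p = 0.0353) and -0.84 ± 0.20 for Mcm3 (adjusted p = 0.0237). Mcm6 had 113, 141 and 165 in healthy control, 139.5, 172 and 197 in disease and 70.5, 104 and 139.9 in RYGB, with a small overlap of RYGB replicate 3 and disease replicate 3 (-0.70 ± 0.16, adjusted p = 0.0214). Mcm4 (-0.30 ± 0.14), Mcm2 (-0.19 ± 0.10) and Mcm7 (0.02 ± 0.11) did not pass, with adjusted p of 0.214, 0.261 and 0.936. Each of the 3 calls was lost on leaving out some single libraries, with the fold changes given here for those fits. Mcm3 was lost without D2, R1 or R4 (adjusted p 0.0501 to 0.0578, log2 fold change -0.84 to -0.80). Mcm5 was lost without D2, D4, D6, R1, R4, R5 or R6 (adjusted p 0.0544 to 0.0821, log2 fold change -1.16 to -1.06). Mcm6 was lost without D1, D2, R1 or R5 (adjusted p 0.0534 to 0.0567, log2 fold change -0.67 to -0.59), and with the replicate block (adjusted p = 0.0515). The S phase count was 0 without disease replicate 2 or RYGB replicate 1 and 1 without RYGB replicates 4 or 5. It was 5 without healthy control replicate 4, with E2f1 and Ccne1 added, while 2.8% of all genes were called lower.

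E2f1, the factor that switches on S phase genes, had 4.91, 26.7 and 41.2 in healthy control, 22.5, 31.4 and 40.1 in disease and 11.02, 16.4 and 19.5 in RYGB, without overlap between disease and RYGB; it did not pass by limma (-0.95 ± 0.36, adjusted p = 0.134) or edgeR (adjusted p = 0.0656) and was called lower by DESeq2 (adjusted p = 0.0144). Ccne1, which encodes cyclin E1 of the entry into S phase, had 4.91, 14.2 and 21.9 in healthy control, 17.6, 20.8 and 27.2 in disease and 1.102, 4.64 and 24.02 in RYGB. RYGB replicates 2 and 3 (16.4 in the latter) stood above the other 4 RYGB libraries (at most 5.33), and Ccne1 did not pass (-1.70 ± 0.48, adjusted p = 0.0537). Ccne1 was called without H4, R2 or R3 (adjusted p 0.0143 to 0.0379). The replication clamp Pcna had 994, 1077 and 1142 in healthy control, 836, 1125 and 1291 in disease and 937, 1049 and 1136 in RYGB, with every group inside 1 range (-0.05 ± 0.09, adjusted p = 0.782). Rrm1, the large subunit of ribonucleotide reductase, Tyms, the enzyme that makes thymidylate, and Cdc6, a loader of the helicase, did not pass, with -0.19 ± 0.10, -0.32 ± 0.16 and -0.57 ± 0.28.

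**Figure D4:**
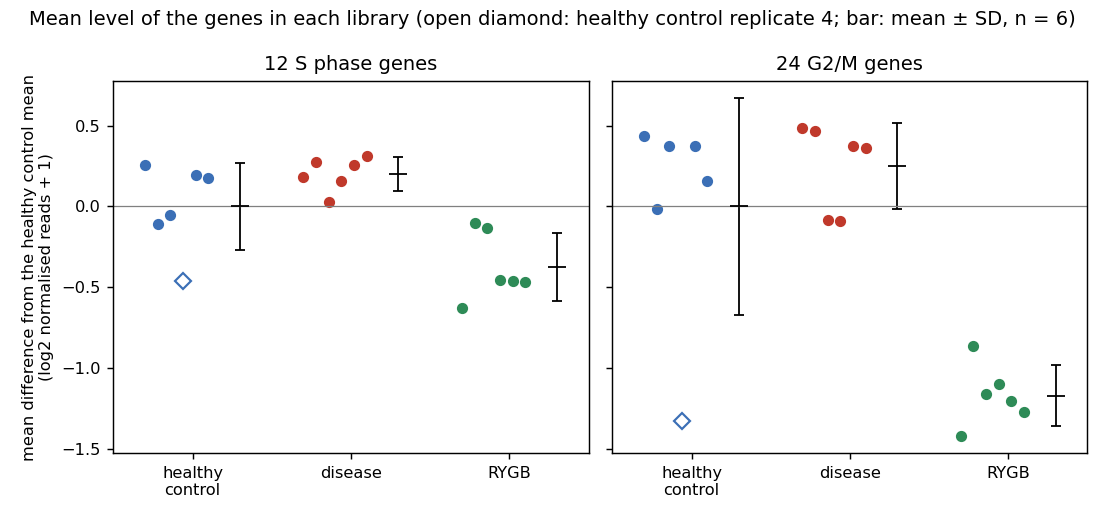
Mean over the 12 S phase and the 24 G2/M genes of the log2 difference (normalised reads + 1) from the healthy control mean, with 1 point per library and the mean ± SD (n = 6) beside each group. Healthy control replicate 4 (open diamond) lies at -1.33 for G2/M, among the RYGB libraries at -1.42 to -0.86, while the other 5 healthy control libraries lie between -0.015 and 0.44.

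Averaged over the 24 G2/M genes on the log2 scale, the difference from the healthy control mean was -1.42 to -0.86 in the RYGB libraries and -0.092 to 0.49 in the disease libraries. The 5 other healthy control libraries lay at -0.015 to 0.44, and replicate 4 at -1.33. Over the 12 S phase genes it was -0.63 to -0.10 in RYGB, 0.027 to 0.31 in disease, -0.11 to 0.26 in those 5 healthy control libraries and -0.46 in replicate 4. Both averages thus separate the RYGB from the disease libraries, and replicate 4 lies within the RYGB range in both. In the S phase average H2 lies there too, at -0.1104 with the highest RYGB library at -0.101. D1 had 8157977 reads in genes, near the 8116638 of replicate 4, and a G2/M average of 0.49. The part of depth was not tested. Ordered by group medians, RYGB was lowest in all 24 G2/M genes, with disease highest in 17 and healthy control highest in 7. In Foxm1 this was a near tie, with medians of 63.37 in RYGB and 63.41 in healthy control. By fold change RYGB was lower in 22 of the 24 against disease and in 23 against healthy control. Disease was highest and RYGB lowest in 11 of 12 S phase genes, and Mcm7 had the order RYGB, disease, healthy control with medians of 385, 381 and 379.

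RYGB cortex was also lower than healthy control cortex in G2/M genes, a comparison that shares the RYGB libraries with the one above. Of the 24 G2/M genes 14 fell and 0 rose, while 1.98% of all genes were called lower, and the median log2 fold change was -1.20 over the G2/M genes, -0.37 over the S phase genes and -0.013 over all genes. Without healthy control replicate 4, 20 G2/M genes and 2 S phase genes (Mcm5 and E2f1) fell, while 4.79% of all genes were called lower. These counts include the genes with no RYGB library at the filter minimum, Ttk and Birc5 among the 14 and also Ccna2, Aurkb and Kif2c among the 20. Of the 11 G2/M and 10 S phase genes with all 6 RYGB libraries at the minimum 8 and 0 fell (1.61% of all such genes), and 8 and 2 without replicate 4 (4.21%). With replicate 4 kept, edgeR and DESeq2 each called 19 G2/M genes lower. The groups did not overlap in 4 genes (Nuf2, Cenpe, Tpx2 and Kif23; 1.4% of all genes), or in 18 G2/M and 2 S phase genes without replicate 4 (4.83%). With all libraries 0 S phase genes were called by limma, 5 had an unadjusted p below 0.05, edgeR called 1 lower (Mcm5; 2.65% of all genes) and DESeq2 2 (Mcm5 and E2f1; 4.86%).

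The folds against healthy control were -1.65 ± 0.27 for Prc1 (adjusted p = 0.00230), -1.56 ± 0.34 for Ndc80 (0.0150) and -1.25 ± 0.27 for Nuf2 (0.0126). They were -1.20 ± 0.25 for Cenpe (0.0121), -1.11 ± 0.22 for Tpx2 (0.00735) and -0.91 ± 0.20 for Kif23 (0.0150). These 6 calls were kept under every alternative. The other 8 each ended on leaving out single libraries. Birc5 (-1.22 ± 0.27, adjusted p = 0.0172) was lost without H1 (adjusted p = 0.0537), and Nusap1 (-1.18 ± 0.27, adjusted p = 0.0209) without H1 or R1 (adjusted p 0.0522 to 0.0646). Mki67 (-1.31 ± 0.32, adjusted p = 0.0274) was lost without H1, H2, H3, H5, H6, R1, R2 or R6 (adjusted p 0.0537 to 0.0811). Bub1 (-0.99 ± 0.25, adjusted p = 0.0335) was lost without H1, H3, H5, H6, R1, R4, R5 or R6 (adjusted p 0.0623 to 0.0897). Cdk1 (-0.96 ± 0.25, adjusted p = 0.0367) was lost without H1, H2, H3, H5, H6, R1, R2, R4, R5 or R6 (adjusted p 0.0534 to 0.0863). Plk1 (-0.96 ± 0.27, adjusted p = 0.0478) was lost without H1, H2, H3, H5, H6, D2, D3, R1, R2, R4, R5 or R6 (adjusted p 0.0512 to 0.130), and with no filter (adjusted p = 0.0620) or the replicate block (adjusted p = 0.0501). Ttk (-2.16 ± 0.61, adjusted p = 0.0495) was lost without H1, H2, H3, H5, H6, D2, D3, D4, D5, R1, R2, R4, R5 or R6 (adjusted p 0.0511 to 0.124), and with a pseudocount of 0.5 (adjusted p = 0.0692), no filter (0.0561), TMM scaling (0.0512) or the compared groups alone (0.0540). With Melk, given below, the G2/M count was 6 without healthy control replicate 1, and 7 to 9 without healthy control replicates 2, 3, 5 or 6 or RYGB replicates 1, 5 or 6.

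Leaving out healthy control replicate 4 added Ccna2, Aurkb, Bub1b, Cenpf, Kif20a and Kif2c to limma's calls against healthy control, and all 6 were also called lower by edgeR and DESeq2 with replicate 4 kept. In Cenpf replicate 4 had 2.45 normalised reads, the other 5 healthy control libraries 42.5 to 84.3 and RYGB at most 16. Its fold change was -1.85 ± 0.56 (adjusted p = 0.0592) with replicate 4 and -2.51 without it (adjusted p = 0.000108). Replicate 4 was at or below the highest RYGB library in 13 of the 17 G2/M genes that fell against disease, and above all RYGB libraries in Nuf2, Cenpe, Tpx2 and Kif23.

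Between disease and healthy control cortex 1 of the 36 genes was called, and a gene with no call may still differ. By limma 0 S phase genes and 1 G2/M gene, Melk, were called, while 1.61% of all genes were called and 1.03% called lower. Among the S phase genes 0 had an unadjusted p below 0.05, and edgeR and DESeq2 called 0 (of all genes 1.58% and 2.97%). The median log2 fold change was 0.34 over the G2/M and 0.13 over the S phase genes, and 0.071 and 0.075 without healthy control replicate 4. Fold changes were negative in 2 of 24 G2/M and 2 of 12 S phase genes (49.6% of all genes). Without replicate 4 they were negative in 7 and 3 (49.3%). The highest fold changes, for Kif20a (0.77 ± 0.55), Ttk (0.72 ± 0.61) and Cenpf (0.72 ± 0.56), went to 0.20, 0.030 and 0.063 without it.

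Melk, a kinase of the AMPK family that peaks in mitosis in dividing cells, was highest in healthy control. It had 192, 235 and 416 in healthy control, 20.4, 75.0 and 146 in disease and 28.2, 50.2 and 248 in RYGB. All disease libraries were below all healthy control libraries (-2.04 ± 0.49, adjusted p = 0.0390), and the disease mean was 27.9% of the healthy control mean. Healthy control replicate 4, with 211, stood inside its group here. RYGB replicates 2 and 4 had 248 and 183, and the other 4 RYGB libraries 28.2 to 57.3, so that RYGB did not pass against disease (0.20 ± 0.49, adjusted p = 0.848) and was called lower than healthy control (-1.84 ± 0.49, adjusted p = 0.0400). The call of disease was lost without H1, H2, H3, H5, H6, D3 or D4 (adjusted p 0.0613 to 0.113), and with edgeR (adjusted p = 0.0613). It was lost with a block for the replicate number over all 18 libraries (adjusted p = 0.0870), but not with that block within healthy control and disease alone (adjusted p = 0.0111). The pairing by replicate number is not given by the labels and is uncertain. The call of RYGB against healthy control was lost without H1, H2, H3, H5, H6, R1, R5 or R6 (adjusted p 0.0640 to 0.0991), with edgeR (adjusted p = 0.0806), with DESeq2 (adjusted p = 0.0650) and with the replicate block (adjusted p = 0.0661).

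Other genes of the cycle were read from lists. Of 45 tested other G2/M genes (52 of 60 listed are in the table) 13 fell and 0 rose in RYGB against disease, with a median log2 fold change of -0.83. Of all genes tested 2.1% were called lower there. Without healthy control replicate 4, 19 fell, while 2.8% of all genes were called lower. Of the 13 calls 3 (Cks2, Hjurp and Plk4) were each lost without 1 to 12 single libraries (adjusted p of up to 0.111). Ckap2, a spindle protein, went from 34.1 ± 12.5 in disease to 5.71 ± 1.76 in RYGB (mean ± SD, n = 6; log2 fold change -2.34 ± 0.34, adjusted p = 0.000608). Cdca3, a trigger of mitotic entry, went from 23.3 ± 7.10 to 3.60 ± 2.49 (-2.54 ± 0.41, adjusted p = 0.00153). Ect2, which starts the cleavage furrow, went from 69.8 ± 24.4 to 17.3 ± 8.78 (-2.002 ± 0.35, adjusted p = 0.00296), and Arhgap11a from 87.0 ± 20.8 to 40.5 ± 6.36 (-1.06 ± 0.19, adjusted p = 0.00296). These 4 genes were named for the lowest adjusted p of their list in this comparison. In each the RYGB libraries lay below all disease libraries (1.47% of all genes), which that choice favours. The RYGB means of Ckap2 and Cdca3 were under the filter minimum, so both genes needed libraries of the other groups to pass the filter. Their fold changes carry the larger counting error of low genes. A count limited to genes with all 6 RYGB libraries at the minimum was not made for the other G2/M or other S phase genes. Of 35 tested other S phase genes 1 fell, Uhrf1, which guides the copying of DNA methylation (-1.74 ± 0.30, adjusted p = 0.00263), and the median was -0.15; DESeq2 called 3 lower, against 4.06% of all genes. Against healthy control 12 other G2/M genes fell (1.98% of all genes were called lower) and 22 without replicate 4 (4.79%). Of the 12 calls 7 were each lost without 7 to 12 single libraries (Cdca2, Depdc1b, Ect2, Kif20b, Kifc1, Ncapg and Plk4, adjusted p of up to 0.127). Of the other S phase genes 2 fell against healthy control. These were Uhrf1, lost without H1, H2, H5, H6, R1, R5 or R6 (adjusted p 0.0506 to 0.0702), and Pola1, lost without H1, H2, H3, H5, H6, R1, R2, R4, R5 or R6 (adjusted p 0.0522 to 0.115). In disease against healthy control, where 0.579% of all genes were called higher, 1 other G2/M gene rose, Cks2, a subunit of the cyclin-dependent kinases (0.89 ± 0.22, adjusted p = 0.0414), named here because it is the single call; it was lost without H1, H2, H3, H4, H5, H6, D1, D2, D3, D4, R4 or R6 (adjusted p 0.0510 to 0.107), and with the replicate block over all libraries (adjusted p = 0.0974) or within these 2 groups (adjusted p = 0.0839).

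Genes that hold or license the cycle in G1 had few calls, in both directions. Of 25 tested G1 cyclins, kinases and Rb, E2f and MuvB regulators limma called 0 in RYGB against disease, with 5 at an unadjusted p below 0.05. There edgeR called 1 (Cdk2) and DESeq2 2 (Cdk2 and Mybl2). Of all 13988 genes tested limma called 552 in that comparison, edgeR 622 and DESeq2 1088. Against healthy control Cdk6, a kinase of cyclin D, fell (-0.87 ± 0.23, adjusted p = 0.0368) and E2f4, the E2F of the DREAM complex, rose (0.42 ± 0.11, adjusted p = 0.0383); Cdk6 was lost without H1, H2, H3, H5, H6, R2, R4, R5 or R6 (adjusted p 0.0603 to 0.0939). E2f4 was lost without H1, H2, H3, H5, H6, R1, R2, R4, R5 or R6 (adjusted p 0.0519 to 0.0946). By limma with all libraries 1.98% of all genes were called lower against healthy control. Without healthy control replicate 4 limma called 5 of the 25 against healthy control, 3 higher and 2 lower (Cdk6, Lin54, E2f4, Lin37 and Ccnd3). Of all genes 1506 were called in that fit, and 4.79% were called lower. With all libraries edgeR called 2 and DESeq2 4, each with 1 lower, while 2.65% and 4.86% of all genes were called lower. Of the inhibitors, Cdkn1a, which encodes p21 and is a target of p53, rose from 124 ± 38.1 in healthy control to 447 ± 76.0 in disease (1.89 ± 0.28, adjusted p = 0.000976). It had 409 ± 189.5 in RYGB, above healthy control (1.62 ± 0.28, adjusted p = 0.00322) and not called against disease (-0.27 ± 0.28, adjusted p = 0.617). Cdkn1b, which encodes p27, was higher in all RYGB than in all disease libraries (2299 ± 146 against 1806 ± 119.5; 0.35 ± 0.10, adjusted p = 0.0443), a call lost without H2, H3, H6, D1, D2, D3, D4, D6, R1, R2, R3, R4, R5 or R6 (adjusted p 0.0511 to 0.112). Cdkn2c (0.22 ± 0.13) and Cdkn3 (-1.33 ± 0.43) did not pass against disease (adjusted p = 0.361 and 0.0872); Cdkn3 was called without H4 or R3 (adjusted p 0.0307 to 0.0449).

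Some markers of other cell types were lower in RYGB too, while others were not. In RYGB against disease 2.1% of all genes tested were called lower. No marker in the table was at 0 in all libraries. Of 6 fibroblast and mesangium markers 4 fell in RYGB against disease: Col3a1 (-1.38 ± 0.29, adjusted p = 0.0107), Col1a1 (-1.51 ± 0.34, 0.0163), Dcn (-0.45 ± 0.11, 0.0289) and Pdgfra (-0.57 ± 0.14, 0.0298). Their summed level was 4933 to 7707 in RYGB, 9337 to 12480 in disease and 6079 to 11770 in healthy control, where replicate 4 was the lowest. Of 8 macrophage markers 1 fell, Mrc1 (-1.75 ± 0.22, adjusted p = 0.000334), with sums of 1826 to 2680 in RYGB, 2379 to 3008 in disease and 1599 to 2453 in healthy control, again lowest in replicate 4. The macrophage markers were mixed: 5 of the 8 had negative fold changes against disease, and the median log2 fold change over the 8 was -0.13. Of 5 tested T lymphocyte markers 1 fell, Cd4 (-0.46 ± 0.13, adjusted p = 0.0494), with sums of 413 to 509, 581 to 821 and 348 to 630, and replicate 4 lowest. Cd4 was the largest part of these sums, 568.5 of 630 in H2, and no other marker of the list exceeded 43.1 (Cd3e in D3). The sums therefore mostly follow Cd4, and which cells the Cd4 reads came from was not tested. By edgeR and by DESeq2 3 of the 5 fell, Cd3e, Cd3g and Cd4 (2.31% and 4.06% of all genes were called lower). B lymphocyte markers had sums of at most 15.7 in every library, and none was tested. Of the red cell precursor list Alas2, the heme synthesis enzyme of these cells, is in the table. It had 371 to 952 in RYGB, 32.2 to 234 in disease and 2.45 to 283 in healthy control, with replicate 4 lowest. It did not pass against disease by limma (2.28 ± 0.79, adjusted p = 0.107), was called higher there by edgeR, DESeq2 and limma without replicate 4, and rose against healthy control (2.98 ± 0.79, adjusted p = 0.0374; lost without H2, H3, H6, R1, R2, R4, R5 or R6 (adjusted p 0.0519 to 0.0873)).

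Against healthy control 3 of the 6 fibroblast and mesangium markers fell in RYGB, Dcn (-0.61 ± 0.11, adjusted p = 0.00523), Pdgfra (-0.75 ± 0.14, 0.00581) and Col3a1 (-1.12 ± 0.29, 0.0350; lost without H1, H2, H3, H5, H6, R1, R2 or R5 (adjusted p 0.0627 to 0.0910)). Of all genes tested 1.98% were called lower in that comparison. Without replicate 4 the count was 5, with Col1a1 and Col1a2 (4.79% of all genes). Mrc1 also fell (-1.10 ± 0.22, adjusted p = 0.00910), as did the endothelial marker Cdh5 (-0.54 ± 0.14, 0.0356; lost without H1, H2, H3, H5, R1, R2, R4, R5 or R6 (adjusted p 0.0593 to 0.0966)). Of the T lymphocyte markers 0 were called by limma, edgeR or DESeq2 in that comparison, 0 had an unadjusted p below 0.05 by limma, and Cd4 was called lower without replicate 4.

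**Figure D5:**
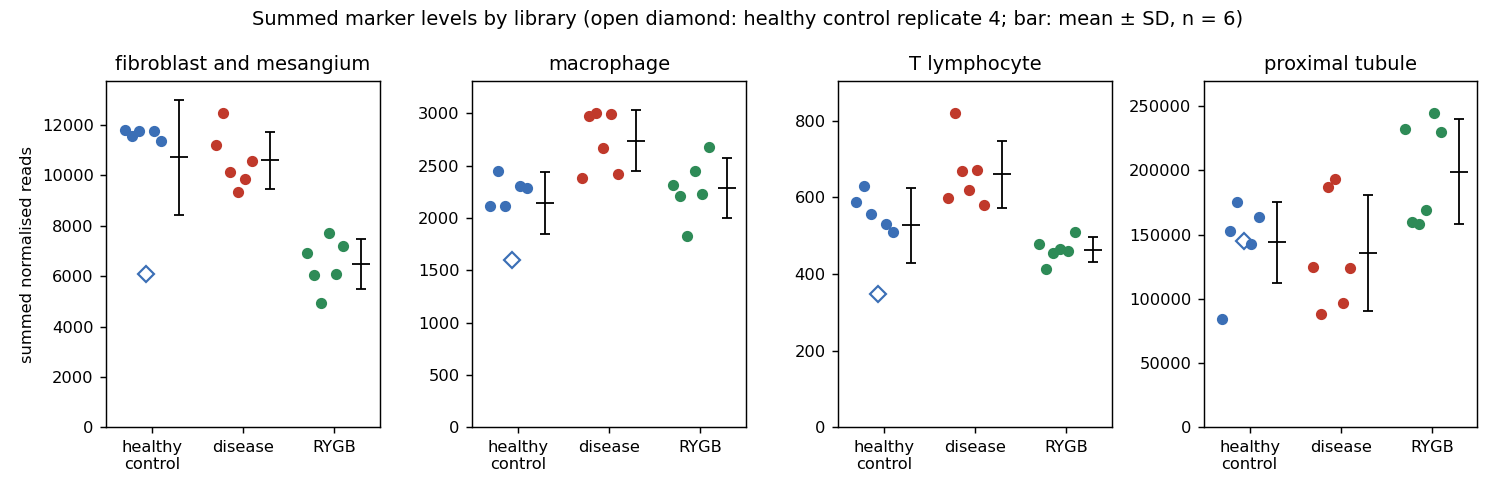
Summed normalised reads of the markers of fibroblasts and mesangium, macrophages, T lymphocytes and proximal tubule in every library, with the mean ± SD (n = 6) beside each group. The T lymphocyte sum is mostly Cd4. The 6 RYGB libraries lie below the 6 disease libraries in the fibroblast and mesangium sum (at most 7707 against at least 9337), and healthy control replicate 4 (open diamond) is the lowest healthy control library there.

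Of 6 tested markers of injured tubule 2 fell in RYGB against disease, Havcr1 (-4.96 ± 0.68, adjusted p = 0.000471) and Vim (-0.66 ± 0.14, 0.0129), and DESeq2 also called Sox9 higher. Of all genes 2.1% were called lower there by limma. In disease against healthy control, where 0 of the 36 cell cycle genes were called higher, 3 of the 6 markers rose and 2 had negative fold changes. These 3 were Havcr1 (4.63 ± 0.68, adjusted p = 0.000911), Vim (0.60 ± 0.14, adjusted p = 0.0321) and Krt8 (0.82 ± 0.20, adjusted p = 0.0477). Vim was lost without H2, H3, H6, D2, D3, D4 or D5 (adjusted p 0.0563 to 0.0982). Krt8 was lost without H1, H2, H3, H5, H6, D1, D3, D4, D6, R1, R2, R3, R4, R5 or R6 (adjusted p 0.0524 to 0.130). Of all genes 0.579% were called higher in disease against healthy control. Summed over the 7 injured tubule markers in the table, healthy control had 7002 to 11830, and here replicate 4 was the highest. Disease had 11310 to 16610 and RYGB 9969 to 11220. In RYGB against healthy control Krt8 rose (0.83 ± 0.20, adjusted p = 0.0301; lost without H1, H2, H3, H5, R1, R4, R5 or R6 (adjusted p 0.0547 to 0.0866)). Of 5 proximal tubule markers 0 passed by limma or edgeR in RYGB against disease, 3 had an unadjusted p below 0.05 and DESeq2 called 2 (Slc34a1 and Aqp1) higher, with sums of 158000 to 244900 in RYGB and 88250 to 193100 in disease. Umod, 1 of 2 thick ascending limb markers, rose in RYGB against disease (1.13 ± 0.28, adjusted p = 0.0294), where 258 of all 13988 genes were called higher. Aqp3, 1 of 3 distal tubule and collecting duct markers, fell (-0.62 ± 0.17, adjusted p = 0.0444). Of 4 podocyte and 4 endothelial markers 0 were called in that comparison by limma, edgeR or DESeq2, and 0 had an unadjusted p below 0.05 by limma. In disease against healthy control Umod was called lower by limma, edgeR and DESeq2, and limma's call was kept without any 1 library. Of all genes 1.03% were called lower there by limma. In RYGB against healthy control Umod was not called by limma, edgeR or DESeq2. In RYGB against disease the Umod call was lost without D1, D4, D6, R1, R2 or R4 (adjusted p 0.0569 to 0.0729). Dcn was lost without D2, D6, R2, R5 or R6 (adjusted p 0.0555 to 0.0745), and Pdgfra without D1, D2, D6, R1, R2, R5 or R6 (adjusted p 0.0512 to 0.0750). Cd4 was called on leaving out healthy control replicates 2 or 4 and lost on leaving out any other library, and Aqp3 was called on leaving out healthy control replicates 1 or 4 or RYGB replicates 2 or 3 and lost on leaving out any other. The part of these cell types in the G2/M result was not tested.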

How the data were processed

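Kidney cortex messenger RNA of 18 rat libraries was measured by RNA-seq with a stranded kit, per the labels' protocols. Groups and replicate numbers come from the sample titles. The authors deposited a normalised signal for each gene, that is, its read count over the size factor of the library. The tools named in the submitters' processing notes were HTSeq 0.6.1p1 and DESeq2, with FastQC 0.11.2 and MultiQC 0.9 and the build Rnor 5.0; neither aligner nor annotation is given in the sources used here. Whole reads were recovered from the deposited signal: in each library 99.98% or more of the values were whole numbers of reads, to within 0.01. The 3 rows of 18423 that name no gene were left out; they hold the reads outside genes (27.6 to 43.2% of the column total), with several alignments (13.5 to 18.1%) or with ambiguous genes (0.069 to 0.114%). Reads with several alignments were not assigned to a gene, so genes with close copies elsewhere are uncertain.

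Log2(value + 1) was tested with limma 3.58.1 in R 4.3.3, using its mean-variance trend. The 13988 genes tested had 10 or more normalised reads in 6 or more libraries. A single model with 3 group means and 15 residual degrees of freedom covered all 18 libraries and gave 3 two-sided comparisons, adjusted by Benjamini-Hochberg over all tested genes and called below 0.05. No sample was dropped or imputed. Alternatives were edgeR 4.0.16 and DESeq2 1.42.0 on the recovered reads (edgeR called 221 genes in disease against healthy control, 622 in RYGB against disease and 812 in RYGB against healthy control), other pseudocounts, filters and scalings, a block for the replicate number, the compared groups alone and leaving out each library; the test was checked on simulated data. Replicate numbers recur in each group: deviations of same-numbered libraries correlated at 0.131 to 0.324 between healthy control and disease in all 6 pairs. However, disease replicates 2, 3 and 4 correlated best with healthy control replicates 1, 5 and 6. The numbers were taken to pair these 2 groups from the data and not from the labels, and this pairing is uncertain. Same-numbered libraries correlated at -0.557 to 0.309 between RYGB and disease and at -0.310 to 0.0142 between RYGB and healthy control, which do not pair. The genes and lists were chosen with earlier results of these data known. All 41 genes of the rule are named, with levels for those called in at least 1 comparison and for some that were not; of other lists, up to 4 called genes with the lowest adjusted p in RYGB against disease and the inhibitors are named, and further single genes were chosen after their values were seen.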

Additional observations from a re-analysis of the deposited data

Results flagged for a closer look

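In 6 of 108 groups of 6 libraries (36 genes in 3 groups) 1 library lay far from the other 5, while chance flags about 1 in 20 such groups. Healthy control replicate 4 accounts for 3 of the 6. It had 14.7 normalised reads of Cdk1, where the other 5 healthy control libraries had 38.3 to 49.1. It had 0 of Ttk (the others 14.1 to 19.8) and 39.2 of Mki67 (the others 144 to 204).

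The other 3 were single high libraries. RYGB replicate 2 had 91.6 of Foxm1, the other RYGB libraries 54.4 to 65.6. Disease replicate 2 had 69.6 of Bub1, the other disease libraries 29.3 to 41.6. Disease replicate 5 had 37.0 of Ube2c, the other disease libraries 11.9 to 17.6.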

How the results depend on the processing

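Of the 20 calls among the 36 genes in RYGB against disease 15 were kept under every alternative that tested the gene, of the 14 in RYGB against healthy control 6, and of the 1 in disease against healthy control 0. None of these called genes changed direction. The count of all genes called went from 225 to 143 at a minimum of 50 and to 415 by DESeq2 in disease against healthy control, and from 552 to 1088 by DESeq2 in RYGB against disease. In RYGB against healthy control it went from 621 to 1588 by DESeq2, 1442 with the compared groups alone and 1499 without the 2 shallowest libraries. With each library left out these counts ranged from 126 to 312, from 261 to 819 and from 209 to 1506. The G2/M count in disease against healthy control was 1 and went to 0 with edgeR (either scaling) and without the 2 shallowest libraries, and ranged from 0 to 1 with 1 library left out. At a minimum of 50, G2/M counts went from 17 to 6 in RYGB against disease and from 14 to 6 against healthy control, with fewer genes tested. The S phase count of 0 in RYGB against healthy control was 1 with edgeR (either scaling), 2 with DESeq2 and 2 without the 2 shallowest libraries. With 1 library left out, S phase counts ranged from 0 to 5 in RYGB against disease and from 0 to 2 against healthy control, and G2/M counts from 15 to 19 and from 6 to 20. The cause of the other moves was not tested. Leaving out the 2 shallowest libraries, and the replicate block in a fit of only healthy control and disease, were added after the data were seen. Scaling moved the median of all genes by less than 0.1. Depth limits low genes: 3 reads are 1.48 to 7.47 normalised reads, depending on the library.

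With the replicate block over all libraries, disease against healthy control had 0 S phase and 0 G2/M calls (Melk, adjusted p = 0.0870), and within these 2 groups alone it had 1 G2/M call. RYGB against disease had 2 S phase and 17 G2/M calls with the block and RYGB against healthy control 0 and 13, but the numbers pair neither of these comparisons.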
